A study of Mus musculus with 6 samples.

Results

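The genes described here are 8 enzymes of cholesterol synthesis, Hmgcs1, Idi1, Fdps, Fdft1, Sqle, Lss, Cyp51 and Dhcr7, chosen by name from the 12626 genes measured. All 8 had a row of their own. They were followed by polyA RNA-seq in wild-type J1 mouse ES cells, a single line of pluripotent cells derived from the early embryo, during a change of culture medium. At D0 the cells were in serum with LIF, on gelatin and without feeder cells. At D6 and D13 they had spent 6 and 13 days in 2i+vitC, a serum-free medium with N2 and B27 supplements, LIF, the Gsk3 inhibitor CT-99021, the MEK inhibitor PD0325901 and vitamin C. Each day had 2 replicates, 6 samples in all, and all carried the same wild-type genotype. Loss of serum, a change of basal medium and passaging enzyme, the supplements, the inhibitors and vitamin C came together. Time in culture differed too, so the parts of all these in any change cannot be told apart.

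Cells obtain cholesterol by making it from acetyl-CoA through the mevalonate pathway, or by taking up lipoproteins and releasing their cholesterol in lysosomes. When membrane sterol is low, SCAP carries the transcription factor SREBP2, encoded by Srebf2, out of the endoplasmic reticulum to be cleaved, and INSIG proteins hold it back when sterol is plentiful. SREBP2 binds sterol regulatory elements next to CCAAT boxes and raises synthesis and uptake genes together. Serum contains lipoprotein cholesterol, which serves as a source for uptake.

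The 250 bases before the gene start are printed for 4 members, because the members are known targets of a shared regulator. Its letters were searched in these bases and in the 50 bases after the start, which are not printed. Capitals mark matches to a sterol regulatory element (TCACNCCAC, or the shorter and overlapping TCACCNCA) or to a CCAAT box, on either strand. Sequences are from RefSeq on GRCm38.p6, written 5′ to 3′ on the strand of the gene. Hmgcs1 is at chr13:119690101-119690350 (plus strand), Cyp51 at chr5:4104698-4104947 (minus), Dhcr7 at chr7:143829964-143830213 (plus) and Idi1 at chr13:8885356-8885605 (plus).
Hmgcs1: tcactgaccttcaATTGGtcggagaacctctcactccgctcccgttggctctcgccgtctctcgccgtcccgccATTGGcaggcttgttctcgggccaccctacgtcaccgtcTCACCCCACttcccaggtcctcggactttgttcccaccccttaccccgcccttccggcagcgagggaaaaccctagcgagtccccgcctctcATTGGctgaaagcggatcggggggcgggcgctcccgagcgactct
Cyp51: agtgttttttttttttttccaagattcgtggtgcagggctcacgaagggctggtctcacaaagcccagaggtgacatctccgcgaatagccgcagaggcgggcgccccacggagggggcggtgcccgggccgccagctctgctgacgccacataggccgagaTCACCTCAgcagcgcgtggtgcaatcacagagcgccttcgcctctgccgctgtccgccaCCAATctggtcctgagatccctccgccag
Dhcr7: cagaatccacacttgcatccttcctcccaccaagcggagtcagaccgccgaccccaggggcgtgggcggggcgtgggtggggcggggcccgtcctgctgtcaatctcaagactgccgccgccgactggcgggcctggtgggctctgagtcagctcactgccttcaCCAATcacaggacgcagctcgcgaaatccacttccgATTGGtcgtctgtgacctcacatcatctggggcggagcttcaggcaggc
Idi1: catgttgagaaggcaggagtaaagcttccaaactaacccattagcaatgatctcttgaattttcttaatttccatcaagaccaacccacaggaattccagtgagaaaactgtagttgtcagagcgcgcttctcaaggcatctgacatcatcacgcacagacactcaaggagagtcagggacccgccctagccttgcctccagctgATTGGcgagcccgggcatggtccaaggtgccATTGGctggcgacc

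Hmgcs1 held the longer element as TCACCCCAC, 137 bases before its start. It had 3 CCAAT boxes read on the other strand as ATTGG, 237, 176 and 45 bases before the start. A further ATTGG lay 10 bases after the start, outside the printed stretch. Cyp51 held the shorter element as TCACCTCA at 88 bases before the start, with a CCAAT box at 29. Idi1 had CCAAT boxes at 45 and 14 bases and no match to either element. Dhcr7 has 3 starts in the table, and the start shown is the only one of these with CCAAT boxes, at 85 and 49 bases, and it too had no match to the elements. The promoter of Lss held 1 CCAAT box, at 62 bases, and no match to either element. Promoters of Fdps, Fdft1 and Sqle were not used here. Among 32851 promoters of 300 bases, 250 before and 50 after the start, the longer element occurred in 1.24%, the shorter in 4.42% and the CCAAT box in 37.4%. A match is a description of the letters, not of binding.

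Values are log2 CPM, the log2 of a gene's share of the reads after scaling between samples. The samples had 73230745 to 83688345 reads on genes, and 3 reads corresponded to 0.0344 to 0.042 CPM. Each member had at least 1746 reads in every sample, so the spread between replicates, not counting, limits the precision. Days were compared with limma over 12928 rows (12626 genes and 302 transposon families), and a gene passed at an adjusted p under 0.05. With 2 samples against 2, an exact test of one gene cannot go below p = 0.33, so each call borrows its spread from the whole table. The study calls its replicates biological, but how they were separated is not given, and the p-values measure the spread between these samples. The 5 ES cell markers all had a row and were at 7.29 or above in all 6 samples, but not at steady levels. Nanog rose by 2.00 by D6 (limma adjusted p = 0.00029) and Sox2 fell by 0.69 by D13 (adjusted p = 0.031), while Pou5f1, Esrrb and Zfp42 did not pass from D0 to either day. Of the 6 fibroblast markers, 3 had a row (Col1a1, Col1a2 and Thy1), and their summed level was 29.7 and 10.1 CPM in the D0 replicates and 4.86 to 5.62 CPM in the other 4 samples. The 3 primitive endoderm markers with a row, of 6, summed to 17.8 and 20.4 CPM at D0 and 3.48 to 5.42 CPM later, through a fall of Dab2 by 4.32 by D6 (limma adjusted p = 0.00015), while Sox17 and Pdgfra differed by 0.16 and 0.52 without passing. The 3 trophoblast markers with a row, of 6, summed to between 79.97 and 116.6 CPM in all samples, with Krt18 falling by 4.11 by D6 (limma adjusted p = 6.1e-05) and Tfap2c 1.02 higher (adjusted p = 0.054). The 3 two-cell markers with a row, of 6, summed to 10.4 and 8.34 CPM at D0 and 0.26 to 3.98 CPM later. No marker with a row was at 0 throughout, and the part of these markers in the results was not tested. In bulk samples, fewer cells of a type and less RNA per cell cannot be told apart.

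The D0 replicates stood apart for the members. All 8 members were higher in D0 replicate 1 than in D0 replicate 2, by 0.44 (Sqle) to 1.77 (Idi1) on the log2 scale, with a median of 0.95. Over all 12626 genes the median size of that difference was 0.344, and 45.4% of genes were higher in replicate 1. The summed level of the members was 942.2 and 431.1 CPM in the D0 replicates, 1507 and 1383 CPM at D6, and 1311 and 1263 CPM at D13. Both replicates of D6 and of D13 thus had a higher sum than either D0 replicate. The D6 replicates were close, with members differing by -0.24 to 0.35, and the D13 replicates by -0.83 to 0.67. The same D0 replicate 1 had the higher fibroblast marker level. The ES cell markers did not all differ in the same direction between D0 replicates 1 and 2. Pou5f1 was at 9.94 and 9.63, Sox2 at 8.82 and 9.13, and Nanog at 7.56 and 7.76. Zfp42 was at 8.90 and 9.75, and Esrrb at 7.29 and 8.77. Whether any of these markers relates to the members was not tested. Member results from D0 are therefore also given without each D0 replicate.

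**Figure D1:**
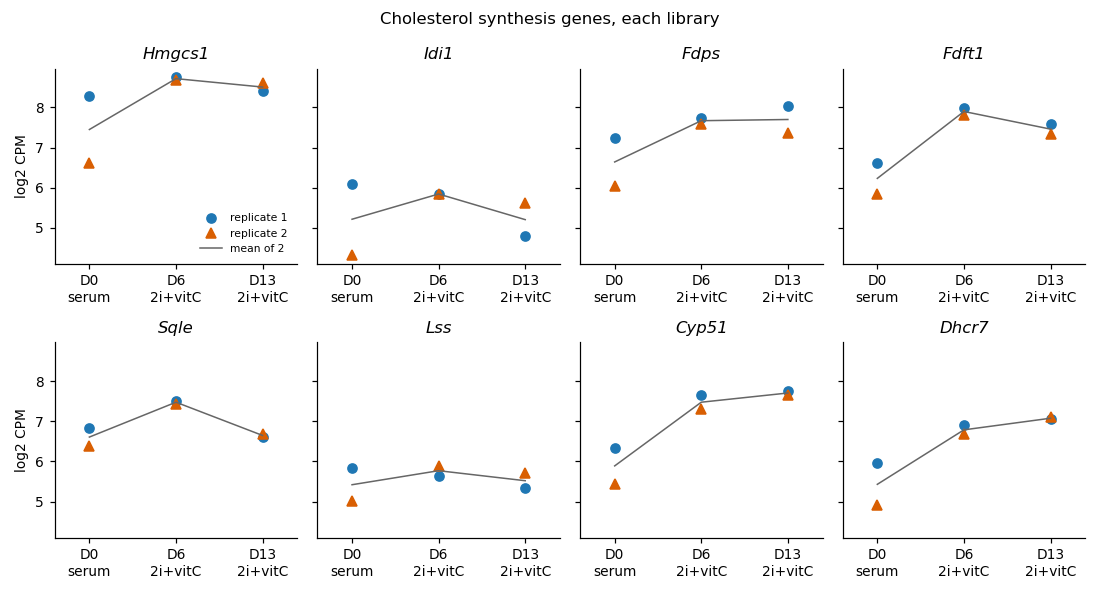
Log2 CPM of each of the 8 members (panels) at D0, D6 and D13, with a point per replicate and a line through the means of the 2 replicates. In every panel the D0 points are farther apart than the D6 points, with the smallest D0 gap, 0.44, in Sqle.

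Per kilobase of exon, Fdps and Hmgcs1 had the highest levels on each day, 74.7 ± 41.6 and 58.8 ± 43.4 RPKM at D0 (SD, n = 2), 140 ± 9.43 and 121 ± 3.44 RPKM at D6, and 147 ± 47.2 and 105 ± 10.1 RPKM at D13. Lss had the lowest, with 9.56 ± 3.78, 11.7 ± 1.37 and 9.94 ± 1.86 RPKM. Fdps and Hmgcs1 overlapped in their spread at D0 and D13 and not at D6. At D0 all neighbours in the order overlapped, including Sqle (35.8 ± 7.69), Fdft1 (21.1 ± 7.71), Dhcr7 (16.3 ± 7.89), Cyp51 (15.8 ± 6.61) and Idi1 (14.6 ± 11.3). At D6, Sqle (64.8 ± 2.57) and Fdft1 (64.6 ± 5.35) had overlapping levels, as had Cyp51 (45.6 ± 7.81) and Dhcr7 (39.5 ± 4.04), while Idi1 at 19.0 ± 0.214 RPKM stood apart from both its neighbours. At D13 Sqle was at 36.3 ± 1.62 RPKM, below Cyp51 at 53.4 ± 2.25, Dhcr7 at 48.1 ± 1.28 and Fdft1 at 47.9 ± 6.21, and Idi1 at 12.7 ± 5.02 overlapped Lss. These orders are descriptions without a test.

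The first comparison asked how the members stood after 6 days in 2i+vitC. Fdft1, Sqle, Cyp51 and Dhcr7, 4 of the 8 members, rose from D0 to D6 by 1.83-fold to 3.17-fold, and 0 fell. Over all 12928 rows, 13.7% rose and 10.2% fell by the same rule. All 8 members had a higher mean at D6, with a median log2 fold change of 1.15 against -0.005 over all rows. None was over 4-fold with an adjusted p under 0.05, a limit that 9.75% of rows passed. Both D6 replicates were above both D0 replicates for 6 of 8 members, against 34.0% of rows.

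Of the early steps, Hmgcs1, which makes HMG-CoA from acetyl-CoA units, was at 8.28 and 6.61 in the D0 replicates, 8.75 and 8.69 at D6, and 8.41 and 8.61 at D13. Every sample in 2i+vitC lay above both D0 samples, though by a small margin over D0 replicate 1. The difference from D0 to D6 was 1.27 (95% interval 0.25 to 2.29, not adjusted over genes, as for all intervals here) and did not pass (limma adjusted p = 0.074). Fdps, which joins isoprene units into farnesyl diphosphate, the branch point to sterols, dolichol and ubiquinone, was at 7.24 and 6.04, then 7.74 and 7.60, then 8.03 and 7.37. Both later days lay above D0, with D6 inside the range of D13, and the D0 to D6 difference of 1.03 (0.16 to 1.90) did not pass either (limma adjusted p = 0.088). Idi1, the isomerase that makes the reactive isoprene unit, was at 6.10 and 4.32, then 5.83 and 5.85, then 4.79 and 5.62. The D0 replicates enclosed all 4 later samples, and the difference from D0 to D6 was 0.63 (-0.54 to 1.80, limma adjusted p = 0.43).

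Fdft1, squalene synthase and the first enzyme committed to sterols, was at 6.62 and 5.85 in serum, 7.98 and 7.81 at D6, then 7.60 and 7.33 at D13. The 3 days did not overlap, with D6 highest and D0 lowest. It rose by 1.66 ± 0.28 (SE) on the log2 scale from D0 to D6, or 3.17-fold (limma adjusted p = 0.0027). Sqle, the squalene epoxidase and a step known to limit the flow into sterols, was at 6.83 and 6.39, then 7.52 and 7.44, then 6.60 and 6.69. Here D6 stood above D0 and D13, which overlapped each other, and the rise to D6 was 0.87 ± 0.22, or 1.83-fold (limma adjusted p = 0.021). Lss, which closes the sterol rings to give lanosterol, was at 5.83 and 5.01, then 5.65 and 5.89, then 5.33 and 5.72. Its days overlapped, with a difference from D0 to D6 of 0.35 (-0.34 to 1.04, limma adjusted p = 0.46).

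After lanosterol, Cyp51, the lanosterol demethylase, was at 6.33 and 5.45 in serum, 7.65 and 7.30 at D6, then 7.75 and 7.67 at D13. Dhcr7, the reductase that yields cholesterol, was at 5.95 and 4.92, then 6.90 and 6.69, then 7.06 and 7.11. For both genes every 2i+vitC sample lay above both D0 samples, and D13 lay above D6. Cyp51 rose by 1.58 ± 0.30 from D0 to D6, or 3.00-fold (limma adjusted p = 0.0052). The rise of Dhcr7 was 1.36 ± 0.32, or 2.57-fold (limma adjusted p = 0.015).

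**Figure D2:**
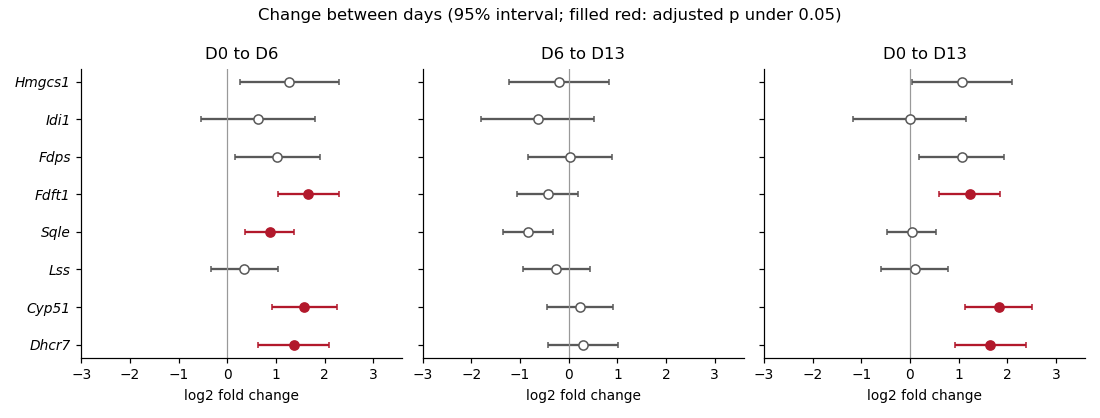
Log2 fold change of the 8 members between days, with 95% limma intervals and filled symbols for an adjusted p under 0.05. From D0 to D6 all 8 points are above 0 and 4 are filled, and from D6 to D13 none is filled.

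The count of 4 depended on single samples. Without D0 replicate 1, whose members were high, 7 members rose (all but Lss), and Hmgcs1 was then 2.11 higher at D6 (limma adjusted p = 0.002). Without D0 replicate 2, 3 rose, namely Fdft1 by 1.28 (limma adjusted p = 0.012), Cyp51 by 1.14 (adjusted p = 0.02) and Dhcr7 by 0.85 (adjusted p = 0.043), while Sqle was 0.65 higher (adjusted p = 0.084). Against D0 replicate 1 alone Hmgcs1 and Fdps were each 0.43 higher at D6, and Idi1 and Lss stood at -0.26 and -0.06. Without D6 replicate 1, 2 members passed, Fdft1 and Cyp51, with Dhcr7 at 1.26 (limma adjusted p = 0.072) and Sqle at 0.83 (adjusted p = 0.2). Fdft1 and Cyp51 passed from D0 to D6 whichever of the 6 samples was left out.

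**Figure D3:**
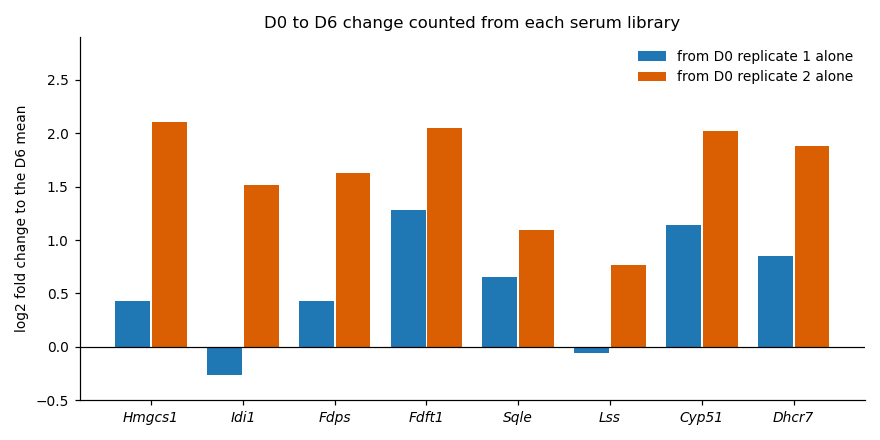
Log2 fold change of each member from a single D0 replicate to the mean of D6, with blue bars for D0 replicate 1 and orange bars for D0 replicate 2. Every orange bar is the longer, and the blue bars of Idi1 (-0.26) and Lss (-0.06) lie below 0.

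From D6 to D13, a week further in the same medium, 0 of 8 members rose and 0 fell by limma, while 1.39% of all rows rose and 2.78% fell, and 1.10% passed with over 4-fold. With voom precision weights the count was also 0. At an unadjusted p under 0.05 there was 1 member, Sqle, with a difference of -0.83 (-1.34 to -0.33, limma adjusted p = 0.065). Its adjusted p was 0.049 in limma without D0 replicate 1 or without D0 replicate 2. The median over the members was -0.23, against -0.024 over all rows, and 3 members, Fdps (0.03), Cyp51 (0.24) and Dhcr7 (0.29), had a higher mean at D13. The intervals of the other members were wide and did not exclude differences of either sign within their limits. They were -1.23 to 0.82 for Hmgcs1, -1.81 to 0.53 for Idi1, -0.84 to 0.90 for Fdps and -1.06 to 0.19 for Fdft1. They were -0.94 to 0.44 for Lss, -0.44 to 0.91 for Cyp51 and -0.43 to 1.01 for Dhcr7.

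From D0 to D13, 3 of 8 members rose and 0 fell, beside 20.6% and 21.5% of all rows, so that a rise by D13 was common in the table. Cyp51 rose by 1.82 (1.14 to 2.50), or 3.53-fold, with a limma adjusted p of 0.0017. Dhcr7 rose by 1.65 (0.93 to 2.38), or 3.14-fold (limma adjusted p = 0.0037), and Fdft1 by 1.23 (0.60 to 1.86), or 2.34-fold (limma adjusted p = 0.0077). Hmgcs1 was 1.07 higher (0.04 to 2.09, limma adjusted p = 0.087) and Fdps 1.06 higher (0.19 to 1.93, limma adjusted p = 0.053), neither passing. Idi1 (-0.01), Sqle (0.04) and Lss (0.10) had nearly the same mean at D13 as in serum, with intervals of -1.17 to 1.16, -0.47 to 0.54 and -0.59 to 0.79. The median was 1.06 against -0.016 over all rows, none passed with over 4-fold, as 13.3% of rows did, and 5 of 8 members had both D13 replicates above both D0 replicates, against 33.7% of rows. This comparison shares its D0 samples with that of D0 and D6, so the pair are not independent. Without D0 replicate 1 there were 5 rises, with Hmgcs1 (1.90) and Fdps (1.66) added. Without D0 replicate 2 the same 3 members passed with smaller rises, Cyp51 by 1.38 (limma adjusted p = 0.0072), Dhcr7 by 1.14 (adjusted p = 0.011) and Fdft1 by 0.85 (adjusted p = 0.035), while Hmgcs1 was 0.23 (adjusted p = 0.47) and Fdps 0.46 (adjusted p = 0.29) higher. Idi1, Sqle and Lss then stood at -0.89, -0.18 and -0.31, against 0.88, 0.26 and 0.52 without D0 replicate 1. Without D13 replicate 1 there were 2 rises, as the limma adjusted p of Fdft1 became 0.050.

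A separate test asked whether D6 stood off the middle of D0 and D13. A level that rises and comes back would stand above it, but so would one that rises and stays. A pass therefore does not show a return. Sqle was 0.85 ± 0.19 above that middle (limma adjusted p = 0.028) and Fdft1 1.05 ± 0.24 above it (adjusted p = 0.029). These were 2 of 8 members, against 5.61% of all rows. Their differences from D6 to D13, -0.83 and -0.43, did not pass. The 6 other members lay 0.30 (Lss) to 0.74 (Hmgcs1) above the middle without passing. The count was 0 without either D6 replicate or without D13 replicate 1, 1 without D13 replicate 2 (Sqle) and 5 without D0 replicate 1.

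The other steps of sterol synthesis were described from a list of 11 genes, all with a row. From D0 to D6, 4 of the 11 rose and 0 fell, beside 13.7% and 10.2% of all rows, with a median of 0.79. Msmo1, a sterol methyl oxidase acting after Cyp51, had the largest rise, from 6.40 and 5.16 at D0 to 8.20 and 7.98 at D6, or 2.31 ± 0.36 (limma adjusted p = 0.0019). It was at 7.39 and 7.40 at D13, above both D0 replicates and below both D6 replicates. The others were Ebp, a sterol isomerase (1.71, limma adjusted p = 0.0014), Tm7sf2, a sterol reductase (1.68, adjusted p = 0.0052), and Nsdhl, a sterol dehydrogenase (1.14, adjusted p = 0.033). Msmo1, Ebp and Tm7sf2 passed whichever sample was left out, while Nsdhl passed only without D0 replicate 1. Against D0 replicate 1 alone Msmo1 rose by 1.69, and against D0 replicate 2 alone by 2.93.

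From D6 to D13, 0 of the 11 passed in either direction by limma, beside 1.39% of all rows that rose and 2.78% that fell. At an unadjusted p under 0.05 there was 1, and 0 passed with voom weights. From D0 to D13, 4 of the 11 rose and 0 fell, beside 20.6% and 21.5% of all rows, with a median of 0.74. These were Tm7sf2 (2.08, limma adjusted p = 0.0011), Ebp (1.70, adjusted p = 0.00096), Pmvk, a mevalonate-pathway kinase (1.64, adjusted p = 0.0073), and Msmo1 (1.62, adjusted p = 0.0072). Pmvk did not pass without D13 replicate 1 (1.26, limma adjusted p = 0.062). Without D0 replicate 2 the rise of Msmo1 was 1.00 (limma adjusted p = 0.017) and the difference of Pmvk was 1.19 (adjusted p = 0.047). Over these 11 steps and the 8 members, 19 in all, 8 rose by D6 and 7 by D13 and 0 fell at either, beside 13.7% and 20.6% of all rows that rose.

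**Figure D4:**
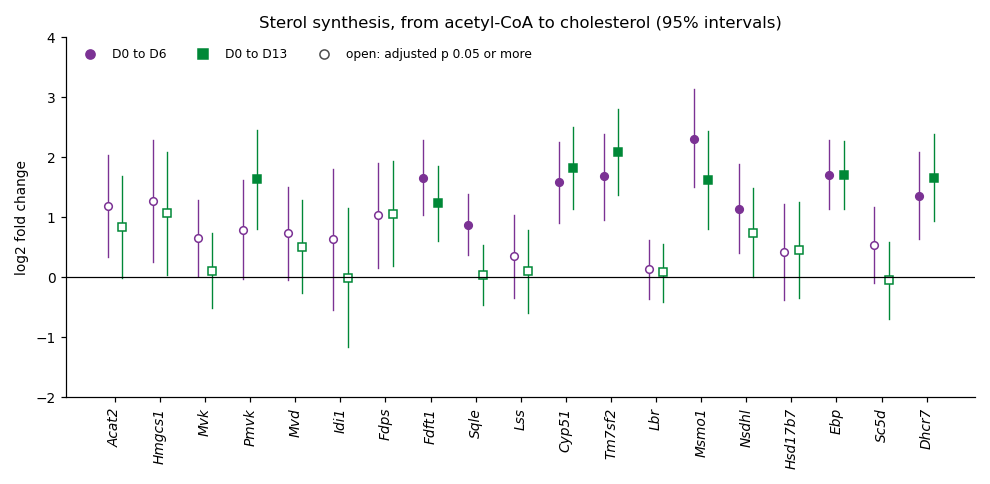
Log2 fold change of 19 sterol synthesis genes, in order of their step from acetyl-CoA to cholesterol, from D0 to D6 (circles) and from D0 to D13 (squares), with 95% limma intervals and open symbols where the adjusted p was 0.05 or more. Filled symbols occur before and after squalene, and all of them lie above 0.

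Among 9 genes of lipoprotein uptake and lysosomal export, 2 rose and 0 fell from D0 to D6, beside 13.7% and 10.2% of all rows, with a median of 0.72. Scarb1, a receptor for high-density lipoprotein, rose by 1.39 by D6 (limma adjusted p = 0.0022) and by 2.22 by D13 (adjusted p = 0.00014), from 4.79 and 5.06 to 7.26 and 7.01. Npc2, which binds cholesterol inside the lysosome, went from 6.39 and 6.49 at D0 to 8.54 and 8.07 and then 9.43 and 8.65, a rise of 1.87 by D6 (limma adjusted p = 0.0021) and of 2.60 by D13 (adjusted p = 0.00025). The rises of Scarb1 and Npc2 by D6 passed whichever sample was left out.

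Its partner Npc1, the membrane protein that passes cholesterol out of the lysosome, fell. It was at 5.35 and 6.03 in serum, 5.95 and 5.74 at D6, then 4.33 and 4.67 at D13. Npc1 fell by 1.34 from D6 to D13 (limma adjusted p = 0.037). It was the only one of the 9 genes to pass at that step, beside 1.39% of all rows that rose and 2.78% that fell. From D0 to D13 it fell by 1.19 (limma adjusted p = 0.0097), as did Lipa, the lysosomal lipase, by 0.98 (adjusted p = 0.023), so that 2 of 9 rose and 2 fell, beside 20.6% and 21.5% of all rows, a share near that of the table. These falls did not pass without D13 replicate 1. The fall of Npc1 was then 1.02 in size from D0 and 1.17 from D6, and that of Lipa was 0.72. From D6 to D13 no row of the whole table passed in that fit. It therefore cannot tell whether the fall of Npc1 from D6 rested on that sample.

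Of 10 sterol sensors and regulators, 9 had a row. From D0 to D6, 3 of the 9 rose and 0 fell, beside 13.7% and 10.2% of all rows, and the median of the list was 0.10. The risers, Srebf2, Insig1 and Srebf1, are parts of the SREBP system. So are Scap (0.10), Insig2 (-0.40), Mbtps1 (-0.22) and Mbtps2 (-0.07), which did not pass. Srebf2 itself was at 7.22 and 6.98, then 8.01 and 8.02, then 8.18 and 8.27, so that the days did not overlap. It rose by 0.91 ± 0.20 to D6 (limma adjusted p = 0.012) and by 1.12 to D13 (adjusted p = 0.0028). Without D6 replicate 1 the D6 difference was 0.92 (limma adjusted p = 0.14) and without D6 replicate 2 it was 0.91 (adjusted p = 0.13), while the rise to D13 passed in each such fit. Insig1, both a brake on SREBP and one of its targets, was at 6.36 and 4.70, then 7.50 and 7.42, then 7.85 and 7.74, and rose by 1.93 to D6 (limma adjusted p = 0.013) and by 2.27 to D13 (adjusted p = 0.0039). Without D0 replicate 2 these rises of Insig1 were 1.10 (limma adjusted p = 0.015) and 1.44 (adjusted p = 0.0041), and without D0 replicate 1 they were 2.76 and 3.10. Srebf1, which drives fatty acid synthesis, rose by 1.00 to D6 (limma adjusted p = 0.013) and by 0.66 to D13 (adjusted p = 0.044). Without D0 replicate 2 these differences of Srebf1 were 0.76 and 0.43 and did not pass. The difference to D6 also did not pass without D6 replicate 1. Scap, the escort of SREBP, was at 5.63 and 4.78, then 5.23 and 5.38, then 5.07 and 5.24, and its differences from D0 were 0.10 (-0.58 to 0.78) and -0.05 (-0.73 to 0.63).

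From D6 to D13, 1 of the 9 passed, Nr1h2, a nuclear receptor for oxysterols, which fell by 0.97 (limma adjusted p = 0.045). Of all rows, 1.39% rose and 2.78% fell at that step. From D0 to D13, 3 of the 9 rose (Insig1, Srebf2 and Srebf1) and 2 fell, near the 20.6% and 21.5% of all rows. The falls were in Mbtps1, a protease that cleaves SREBP, by 0.91 (limma adjusted p = 0.012), and Insig2, by 0.69 (adjusted p = 0.045). Of these regulators only Insig1 and Srebf2 passed from D0 to D13 whichever sample was left out, and Nr1h2 did not pass from D6 to D13 without D6 replicate 1 (limma adjusted p = 0.27). RNA levels of Srebf2 and Scap do not give the cleavage of the protein, which was not measured.

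Of 6 genes of cholesterol efflux and storage, 5 had a row. Soat1, which esterifies cholesterol for storage, fell by 3.38 by D6 (limma adjusted p = 0.00026), from 5.78 and 5.73 to 2.31 and 2.42, and was at 1.89 and 2.92 at D13. This was the only call of the 5 at D6, beside 13.7% of all rows that rose and 10.2% that fell. From D0 to D13, 2 of the 5 rose and 1 fell, beside 20.6% and 21.5% of all rows. Abcg1, a sterol exporter, rose by 1.54 (limma adjusted p = 0.013) and Apoe, a lipoprotein component, by 1.47 (adjusted p = 0.04). The fall was in Soat1 again, with a log2 fold change of -3.34 (limma adjusted p = 0.00019). Without D13 replicate 1 the difference of Abcg1 was 1.64 (limma adjusted p = 0.059) and that of Apoe was 0.89 (adjusted p = 0.26). Of 8 genes that take farnesyl diphosphate to other products, such as dolichol, ubiquinone and prenylated proteins, 7 had a row. By limma 0 of the 7 passed from D0 to D6, beside 13.7% of all rows that rose and 10.2% that fell. From D6 to D13 it was also 0, beside 1.39% and 2.78%, and from D0 to D13 again 0, beside 20.6% and 21.5%. With voom weights 0 of these 7 genes passed in any of the 3 comparisons. Their median was -0.03 from D0 to D6 and -0.07 from D0 to D13. At an unadjusted p under 0.05 there was 1 of them from D6 to D13, and 0 in either comparison with D0. The difference between that list and the sterol genes was not tested.

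**Figure D5:**
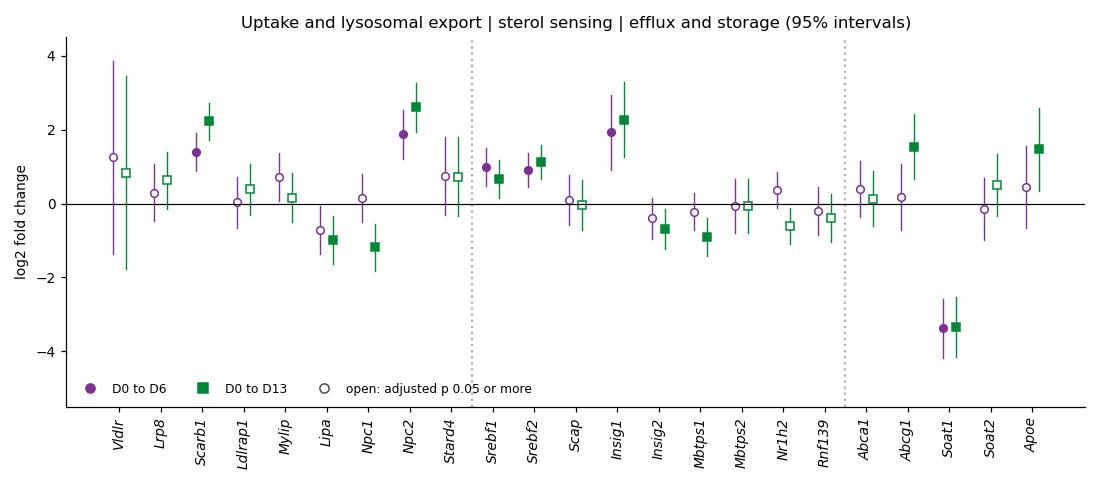
Log2 fold change of genes of uptake and lysosomal export (left), sterol sensing (middle) and efflux and storage (right), from D0 to D6 (circles) and D0 to D13 (squares), with 95% limma intervals and open symbols where the adjusted p was 0.05 or more. Scarb1, Npc2, Srebf1, Srebf2 and Insig1 are filled above 0 at D6, and Soat1 is the one gene filled below 0 at D6.

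Over the 6 samples, the genes whose log2 CPM was most like the mean profile of the members were Aacs (Pearson r = 0.994), Nsdhl (0.989), Cul2 (0.989), Acat2 (0.985) and Tram1 (0.980), among 8594 genes with a mean log2 CPM of at least 3. Aacs, which makes acetoacetyl-CoA in the cytosol, was at 4.54 and 3.33 in serum, 5.33 and 5.25 at D6, then 5.15 and 5.04 at D13. Acat2, which makes the same compound from acetyl-CoA, was at 6.52 and 5.21, then 7.08 and 7.01, then 6.82 and 6.59. Both show the low D0 replicate 2 that shapes the profile, which was -0.12 and -1.19 in serum, 0.49 and 0.39 at D6, then 0.18 and 0.25 at D13 around each member's mean. The members least like it were Sqle (0.715) and Idi1 (0.705). The 6 points share libraries and scaling, so the values are descriptions only.

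On GRCm38 with the GENCODE vM21 annotation, some members share exonic bases with other genes. The libraries were made with a stranded kit, but whether the authors' counting used strand is not given in the sources used here. Fdft1 (chr14:63145150-63179578, minus strand) shares 774 of 3698 exonic bases with Ctsb on the opposite strand, and Ctsb was at 6.08 and 6.26 in serum, 8.01 and 7.61 at D6, then 8.99 and 8.43 at D13. Ctsb rose by 1.64 by D6 (limma adjusted p = 0.002) and by 2.54 from D0 to D13 (adjusted p = 0.00014), and its part in the reads of Fdft1 was not tested. Cyp51 (chr5:4081145-4104746, minus strand) shares 166 of 3931 bases with Akap9 on the opposite strand, which was lower at D13 (4.65 and 5.33) than at D0 (5.87 and 6.32). Fdps (chr3:89093588-89101959, minus strand) shares 1124 of 1453 bases with the predicted gene Gm43738 on the same strand. Whether the annotation the authors counted on held Gm43738 is not known here, and its part in the level of Fdps was not tested. Hmgcs1 (chr13:119690379-119708260), Idi1 (chr13:8885501-8892451) and Lss (chr10:76531588-76557138), all on the plus strand, share 557, 323 and 381 bases with opposite-strand transcripts. Sqle (chr15:59315077-59331192) and Dhcr7 (chr7:143823145-143848410), also on the plus strand, share none.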

How the data were processed

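PolyA RNA-seq of J1 ES cells was analysed at D0, D6 and D13, grouped by the day in the labels. The authors mapped paired-end reads to mm10 with RefSeq genes and counted them, with TopHat2 2.0.6 and HTSeq 0.6.1 (Bowtie 1.0.0 is named too) in the submitters' processing notes. They scaled genes and transposon families together by TMM and deposited log2 CPM made with voom. Allowing for the voom offset of 0.5 reads, the reads could be read back, with 100% of low values whole within 0.05 reads, and these gave depth, RPKM over exonic length and the voom alternative.

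The deposited log2 CPM were tested with limma 3.58.1 (R 4.3.3), with a mean per day and a mean-variance trend, without a block, on all 6 samples, with Benjamini-Hochberg adjustment across 12928 rows. The test was tried on simulated data. Gene names in the files lack the capital letter G, so names with it were not matched, and 3 of 62 listed genes had no row. Some genes of these pathways are not reported here and are in none of the counts of the lists. Python 3.11.15 with pandas 2.3.3, numpy 2.4.6 and matplotlib 3.10.9 made tables and figures.

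The members and lists were chosen with earlier results of these data known. Named were all 8 members, the 4 largest changes from D0 to D13 that passed in each list, Srebf2, Scap and Insig1, and the 5 genes most like the members. Other genes named were chosen after their values were seen, because a count was small. Alternatives left out the trend, a sample or the days not compared, added voom weights or a block, or changed scaling, offset, filter (10 reads in 2 samples) and threshold. Intervals and the 3-read floor of depth cover counting error or the spread of these samples only.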

Additional observations from a re-analysis of the deposited data

How the results depend on the processing

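Depth did not limit the members, but 2 samples per day did. The count of members that changed from D0 to D6, 4, was 0 with over 4-fold, 2 at an adjusted p under 0.01 and 2 to 7 with a sample left out, where the lone sample of a day is assumed to vary like the other days. From D6 to D13 it was 0, but 1 in the fit of only the days compared and 0 to 1 with a sample left out. From D0 to D13 it was 3, but 0 with over 4-fold and 2 to 5 with a sample left out. For D6 against the middle of D0 and D13 the count was 2. It became 0 in limma without the trend, 1 with over 2-fold, 0 with over 4-fold and 0 at an adjusted p under 0.01. Of all 12928 rows, 13.7% rose and 10.2% fell from D0 to D6, and 9.75% passed with over 4-fold. From D0 to D13 the shares were 20.6%, 21.5% and 13.3%, and from D6 to D13 they were 1.39%, 2.78% and 1.10%. Among the 51 other listed genes with a row, 17 changed from D0 to D6 (16 up and 1 down, 5 with over 4-fold). From D0 to D13, 23 changed (17 up and 6 down, 10 with over 4-fold), and 2 changed from D6 to D13. The last became 0 without the trend, 4 in the fit of only the days compared, 1 when centred on the median gene, 1 with over 2-fold, 0 with over 4-fold, 0 at 0.01 and 0 to 4 with a sample left out. Over all rows, 540 calls from D6 to D13 became 4 at 0.01 and 0 without D13 replicate 1, and the cause was not tested. The sign turned for means near each other. With a sample left out, Idi1 ranged from -0.26 to 1.52 and Lss from -0.06 to 0.77 from D0 to D6, Fdps from -0.30 to 0.36 from D6 to D13, and Idi1 from -0.89 to 0.88, Sqle from -0.18 to 0.26 and Lss from -0.31 to 0.52 from D0 to D13. With voom weights the D0 to D13 value of Idi1 was 0.00. Scaling to the median gene moved samples by -0.0531 to 0.0429, and the read filter removed no row.

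Whether replicate numbers pair the samples is not settled. The replicate differences over 12626 genes correlated at -0.13 for D0 and D6, 0.329 for D6 and D13 and 0.137 for D0 and D13. With the replicate block, the members changed numbered 6, 1 and 5 (D0 to D6, D6 to D13 and D0 to D13), the other listed genes 19, 6 and 24, and all rows 3530, 1251 and 5978, against 3090, 540 and 5441 without it.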

Other observations

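Fatty acid synthesis and desaturation, a pathway that shares SREBP regulation, was described from a list of 10 genes. Of these 10, 7 rose and 0 fell from D0 to D6, beside 13.7% and 10.2% of all rows, with a median log2 fold change of 1.66, and 6 rose and 1 fell from D0 to D13, beside 20.6% and 21.5%, with a median of 1.82. Scd1, which puts a double bond into stearoyl-CoA, was at 6.50 and 4.87 in serum and between 8.78 and 9.12 in the 4 later samples. Its rise from D0 to D13 was 3.41 (limma adjusted p = 0.00051), that of Scd2 was 2.36 (adjusted p = 0.0036), that of the acetyl-CoA synthetase Acss2 was 2.34 (adjusted p = 0.004) and that of malic enzyme, Me1, was 2.09 (adjusted p = 0.00015). All 4 passed whichever sample was left out, with the rises to D13 of Scd1, Scd2 and Acss2 at 2.60, 1.54 and 3.10 without D0 replicate 2 and at 4.22, 3.18 and 1.59 without D0 replicate 1. Acss2 was lower in D0 replicate 1 than in D0 replicate 2 (2.23 against 3.75), the opposite of the 8 sterol enzymes, while Scd1 was higher in replicate 1 as they were.

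Fasn, the fatty acid synthase, went the other way, from 9.81 and 8.93 at D0 and 9.34 and 9.80 at D6 to 7.96 and 8.52 at D13. It fell by 1.13 from D0 to D13 (limma adjusted p = 0.028), though without D0 replicate 1 the difference was -0.68 (adjusted p = 0.15) and without D13 replicate 1 it was -0.84 (adjusted p = 0.16).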
